A study of Saccharomyces cerevisiae with 13 samples.

Results

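The 10 genes described here build or remodel the cell wall of budding yeast (Saccharomyces cerevisiae) and were taken by their open reading frame IDs, 10 of the 6205 open reading frames in the deposited table. They are GAS1 (YMR307W), GAS3 (YMR215W), GAS5 (YOL030W), CRH1 (YGR189C), FKS1 (YLR342W), KRE6 (YPR159W), EXG1 (YLR300W), SVS1 (YPL163C), MNN1 (YER001W) and TOS6 (YNL300W). All 10 were present and all 10 were tested. The IDs were taken from a list, not from a cut on measured values, but the list was drawn up with earlier results of these data known.

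The study followed a culture in rich medium (YEPD) for 2 nominal cell cycles once alpha factor had been removed. Alpha factor is the mating pheromone to which MATa cells respond by stopping in G1. There were 13 samples, taken every 10 min from 0 to 120 min, with 1 array each and no replicates. The 0 min sample is the arrested culture and every later sample carries the same arrest and release. Each time point had its own 2-colour array, on which Cy5-labelled RNA of that sample met Cy3-labelled RNA of an asynchronous YEPD culture. The sources used here do not give the strain or its genotype. Values below are log2 ratios of time point over asynchronous culture, so a level cannot be set against that of another gene, and the number of arrays, 13, limits the precision.

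The direction of the ratio is unstated. It was taken as likely from 8 genes induced by pheromone, whose median log2 ratio at 0 min was 3.08, and with the other direction all peaks would be troughs. Of 4 genes specific to MATalpha cells limma called none as departing from its curve at 0 min (0 of 4 also at an unadjusted p under 0.05), with a median log2 ratio of 0.05. The 4 arrays from 0 to 30 min carry another file stamp in their titles than the 9 arrays from 40 to 120 min, and this array set follows time. The spread over all genes was wider in the first set (SD 0.45 to 0.63 log2) than in the second (SD 0.31 to 0.43 log2). In a culture, a change in the share of cells that express a gene and a change in RNA per cell cannot be told apart.

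The yeast wall is a mesh of beta-1,3-glucan to which beta-1,6-glucan, chitin and mannoproteins are joined. Beta-1,3-glucan is spun out at the plasma membrane by a synthase that the GTPase Rho1 activates, and enzymes outside the membrane then cut, lengthen and cross-link the chains. Growth is directed into the bud, which emerges around the G1/S transition, and many wall genes are known targets of SBF, the transcription factor that switches on the G1 cyclins CLN1 and CLN2.

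Each gene was fitted with a wave that repeats every 60 min (1 cosine and 1 sine term) and a term for the array set. At a Benjamini-Hochberg adjusted p under 0.05 over the 6183 genes tested, the moderated F test of limma called 7 of the 10 periodic. Over all genes tested 338 were called, which is 5.47%. The 7 were CRH1, SVS1, TOS6, MNN1, GAS1, FKS1 and GAS3, and the other 3, GAS5, EXG1 and KRE6, did not pass. With a 55 min period limma called 0 of the 10 (8 at an unadjusted p under 0.05), where it called 6 genes in all, and with a second harmonic 3. The median peak-to-trough size, the full height of the fitted curve, was 1.29 log2 over the 10 and 0.25 log2 over all genes tested. Errors on sizes and peak times are standard errors from the residuals around the curve, since no time point was repeated.

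The fitted peaks did not fall together at G1/S. They ran over 22.5 min, from CRH1 at 21.0 ± 0.9 min in the 60 min cycle to GAS5 at 43.5 ± 1.9 min, or over 17.4 min among the 7 called genes. For reference, the G1 cyclin CLN2 peaked at 21.8 ± 1.7 min, RNR1, the large subunit of ribonucleotide reductase, at 19.1 ± 1.1 min, and the histone gene HTA1, an S phase transcript, at 31.0 ± 1.4 min. CRH1 and CLN2 differed by 0.8 ± 1.9 min, less than the error. FKS1 peaked 11.2 ± 2.2 min after CLN2 and GAS3 16.6 ± 2.2 min after it. GAS3 also peaked 7.5 ± 2.0 min after HTA1. SVS1 peaked 2.5 ± 2.3 min and TOS6 3.8 ± 2.8 min after CLN2, while MNN1 followed it by 4.9 ± 2.3 min and GAS1 by 6.7 ± 2.2 min. FKS1 peaked 2.1 ± 2.0 min after HTA1 and GAS1 2.4 ± 2.0 min before it, so neither could be told apart from HTA1. Measured against CLN2, the CRH1 peak lay within its error and those of SVS1 and TOS6 within 2 combined standard errors. Those of GAS1, FKS1 and GAS3 were later by more than that, which by this 1 reference goes against the label G1/S for these 3. MNN1 was only just past that bound and is left undecided. MNN1 and CLN2 were both highest at 20 min in the first cycle (0.63 and 0.70 log2), but at 10 min stood at 0.07 and 0.69 log2. In the second cycle MNN1 was highest at 90 min (0.61 log2) and CLN2 at 80 min (0.75 log2). CLN2 lost its own call in 5 of 13 fits that each left out 1 array, at a 55 min period and with a second harmonic. RNR1 kept its call in all 13 such fits and lost it at a 55 min period. Its peak, 19.1 ± 1.1 min, was earlier than that of CLN2. SVS1 (24.3 ± 1.6 min), TOS6 (25.6 ± 2.2 min) and MNN1 (26.8 ± 1.6 min) therefore lie further from RNR1 than from CLN2. Whether these 3 would also count as later by RNR1 was not tested.

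**Figure D1:**
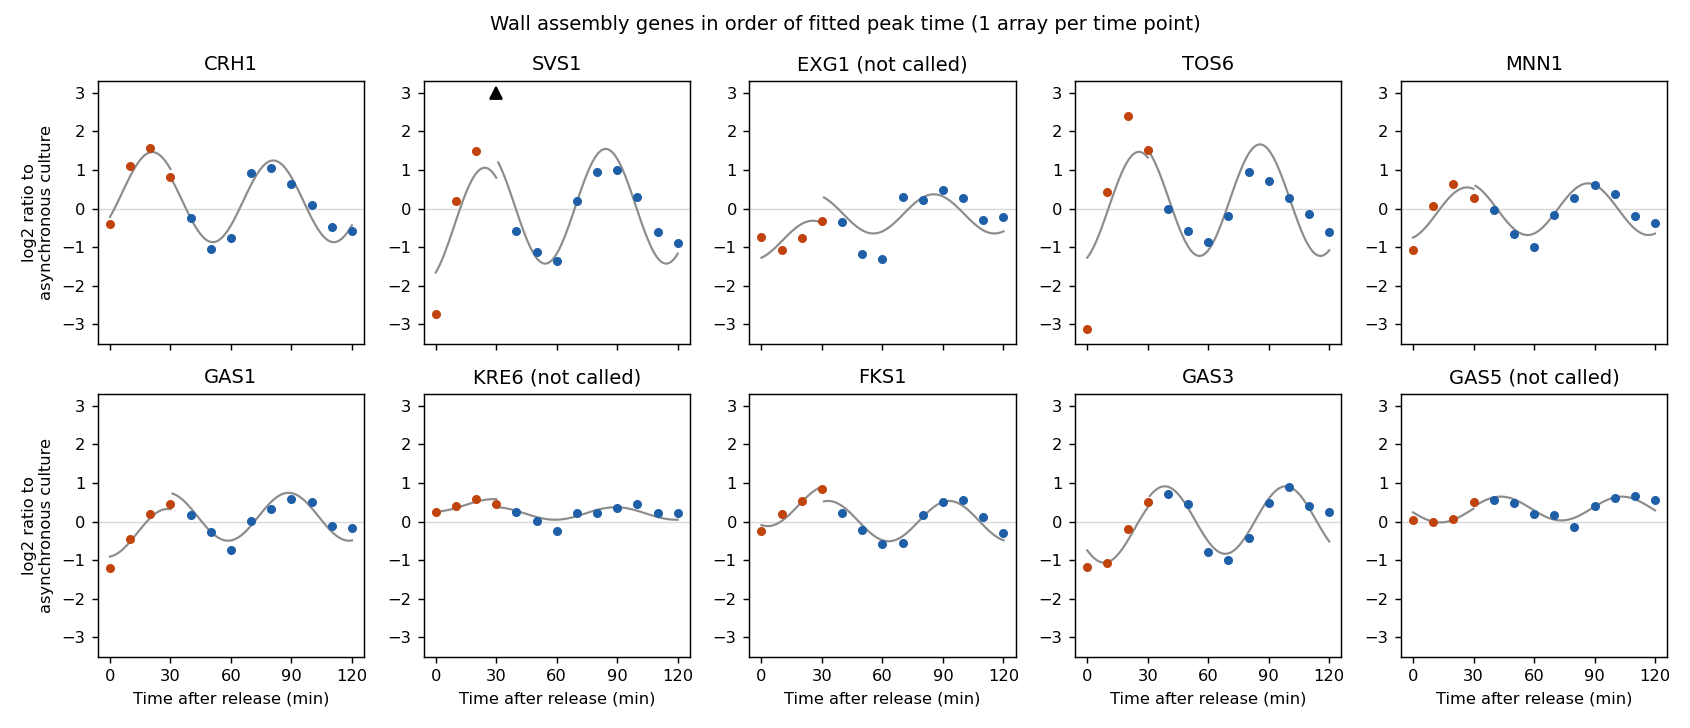
Log2 ratio to the asynchronous culture (vertical axis) against time after release in min (horizontal axis) for the 10 genes in order of fitted peak time, with 1 array per point. Red points are the arrays of 0 to 30 min, blue points those of 40 to 120 min, grey lines the fitted 60 min curve with its step between the array sets, and the black triangle marks the SVS1 value at the limit of the scale, drawn below its true height. Most genes rise and fall in both cycles, KRE6 and GAS5 only slightly, and SVS1 and TOS6 start below -2.7.

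FKS1 encodes the catalytic subunit of beta-1,3-glucan synthase in growing cells. Its log2 ratios from 0 to 120 min were -0.25, 0.20, 0.54, 0.85, 0.23, -0.22, -0.59, -0.57, 0.16, 0.50, 0.55, 0.12 and -0.29. The transcript was highest at 30 min in the first cycle and at 100 min in the second, and lowest at 60 and 70 min. The fitted curve peaked at 33.0 ± 1.4 min with a size of 1.04 ± 0.13 log2, a 2.06-fold swing (limma, adjusted p = 0.00383). The 9 arrays from 40 to 120 min alone gave 1.05 ± 0.16 log2 (limma, adjusted p = 0.00931).

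CRH1 is a transglycosylase that joins chitin to glucan. Its log2 ratios were -0.39, 1.10, 1.57, 0.82, -0.25, -1.06, -0.76, 0.92, 1.06, 0.63, 0.09, -0.49 and -0.57. It was already high at 10 min, fell below 0 from 40 to 60 min, and stood high again at 70 and 80 min. The swing was 4.33-fold (2.11 ± 0.22 log2, limma, adjusted p = 0.00285), the smallest adjusted p of the 10.

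The 3 GAS genes belong to the family of glucanosyltransferases, GPI-anchored proteins that lengthen beta-1,3-glucan chains. Log2 ratios of GAS1, the main member in growing cells, were -1.21, -0.45, 0.20, 0.45, 0.17, -0.28, -0.72, 0.01, 0.33, 0.59, 0.51, -0.11 and -0.16. GAS3 gave -1.18, -1.07, -0.18, 0.50, 0.72, 0.45, -0.79, -1.002, -0.43, 0.49, 0.90, 0.39 and 0.24. Both started low, but GAS1 had come up by 20 min and GAS3 only by 30 min, and in the second cycle GAS1 was back near 0 at 70 min, when GAS3 was at its second-cycle minimum.

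GAS1 spanned 1.24 ± 0.16 log2 and peaked at 28.6 ± 1.4 min (limma, adjusted p = 0.00391). GAS3 spanned 1.75 ± 0.25 log2 and peaked at 38.4 ± 1.4 min (limma, adjusted p = 0.00602), 9.9 ± 2.0 min after GAS1. GAS5 ran from -0.13 at 80 min through a median of 0.40 to 0.67 at 110 min. Its fitted size was 0.62 ± 0.14 log2 and its fitted peak the latest, 43.5 min, and it narrowly missed the threshold (limma, adjusted p = 0.0555). Over its alternatives the adjusted p of GAS5 ran from 0.0107 to 0.409, and it passed with a 65 min period, quantile-normalized arrays, no array set or a linear time term instead, and without the 0 or the 120 min array.

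KRE6, a membrane protein needed for beta-1,6-glucan synthesis, varied little. Its lowest log2 ratio was -0.24 at 60 min, its median 0.24 and its highest 0.59 at 20 min. The fitted size was 0.32 ± 0.12 log2 (limma, adjusted p = 0.241), and no alternative brought it past the threshold (0.139 to 0.493).

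EXG1 encodes the main exo-beta-1,3-glucanase of the wall. Its log2 ratios were -0.74, -1.08, -0.75, -0.32, -0.34, -1.19, -1.31, 0.29, 0.22, 0.49, 0.28, -0.31 and -0.23. All 7 arrays up to 60 min lay below 0, with a small maximum at 30 min, and the step from 60 to 70 min was larger than any other between neighbouring arrays of this gene. The fitted size was 1.01 ± 0.33 log2, close to that of FKS1 but with a larger error, and it did not pass (limma, adjusted p = 0.171, and 0.0768 to 0.418 over the alternatives).

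SVS1 encodes a serine- and threonine-rich protein of the wall and vacuole, first found through vanadate sensitivity. Its log2 ratios were -2.73 at 0 min, 0.18 at 10 min and 1.48 at 20 min, and the 30 min value stood exactly at the upper limit of the deposited scale, 100-fold or 6.64 log2. From 40 to 120 min it gave -0.58, -1.13, -1.36, 0.19, 0.93, 0.995, 0.31, -0.62 and -0.89. The value at the limit is a bound and lies between neighbours of 1.48 and -0.58; on the same array 47 genes had such a value, which was treated as missing throughout. Over the other 12 arrays the size was 2.97 ± 0.44 log2 with a peak at 24.3 ± 1.6 min (limma, adjusted p = 0.0113). With the 30 min value kept it did not pass (adjusted p = 0.109), while over the 9 arrays from 40 to 120 min, which do not hold it, the size was 2.27 ± 0.28 log2 (adjusted p = 0.00438).

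TOS6 encodes a small GPI-anchored wall protein. Its log2 ratios were -3.13, 0.43, 2.39, 1.51, -0.01, -0.57, -0.87, -0.18, 0.94, 0.72, 0.27, -0.13 and -0.61. The climb from 0 to 20 min was the widest change of any of the 10 genes among values within the scale. The size over all arrays was 2.89 ± 0.61 log2 (limma, adjusted p = 0.0362), and over the 9 arrays from 40 to 120 min alone 1.57 ± 0.20 log2 with a smaller adjusted p, 0.00486. Without the 0 min array alone the size fell to 1.74 ± 0.30 log2 (adjusted p = 0.0129). The call over all arrays was lost in 8 of 13 fits that each left out 1 array, without 20, 30, 40, 50, 60, 70, 80 or 100 min (adjusted p over the 13 fits from 0.0129 to 0.0813), and with values at the limit kept (0.0613).

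MNN1 is a Golgi enzyme that adds terminal alpha-1,3-linked mannose to wall proteins. Its log2 ratios were -1.08, 0.07, 0.63, 0.28, -0.03, -0.66, -0.99, -0.15, 0.27, 0.61, 0.38, -0.21 and -0.38. The maxima at 20 and 90 min were nearly equal, as were the minima at 0 and 60 min. It spanned 1.34 ± 0.21 log2 and peaked at 26.8 ± 1.6 min (limma, adjusted p = 0.00912).

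**Figure D2:**
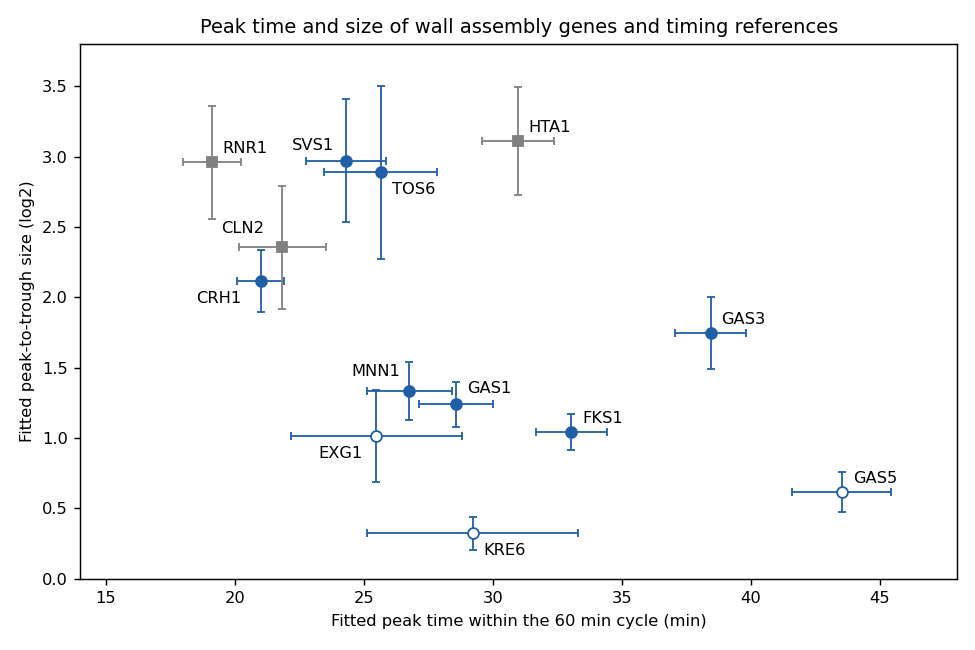
Fitted peak-to-trough size in log2 (vertical axis) against fitted peak time in min within the 60 min cycle (horizontal axis), with standard errors as bars. Filled circles are the 7 called wall genes, open circles the 3 that did not pass, and grey squares the timing references RNR1, CLN2 and HTA1. CRH1 sits beside CLN2, FKS1 within about 1 standard error of HTA1, and GAS3 and GAS5 later.

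In the order of fitted peaks, CRH1, SVS1, EXG1, TOS6, MNN1, GAS1, KRE6, FKS1, GAS3 and GAS5, most neighbours could not be told apart. From CRH1 to FKS1 each step was under 4 min and less than 2 combined standard errors. The step from FKS1 to GAS3 was 5.4 ± 2.0 min and that from GAS3 to GAS5 5.1 ± 2.4 min. Over wider gaps the order was clearer: GAS1 followed CRH1 by 7.6 ± 1.7 min and FKS1 followed MNN1 by 6.3 ± 2.1 min. These errors take the genes as separate, although all share the same 13 arrays. Over the alternatives with a single harmonic, fitted peaks ranged from 18.5 to 24.3 min for CRH1, from 30.1 to 34.9 min for FKS1 and from 36.6 to 40.5 min for GAS3.

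The profiles resembled each other to unequal degrees. Over the 45 pairs of the 10 genes, Pearson's r across arrays had a median of 0.56, and it was at least 0.80 in 8 pairs. SVS1 and TOS6 (r = 0.95) and SVS1 and MNN1 (r = 0.94) were the closest pairs. It was below 0 in 5 pairs, lowest for CRH1 with GAS5 (r = -0.54), and CRH1 with GAS3 gave -0.23. GAS3 and GAS5 resembled each other most among the GAS genes (r = 0.83). These values describe 12 or 13 shared time points that follow each other.

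The 2 cycles were compared through the ranges of the values, with no test because cycle and array set run together. The highest array of the first cycle (0 to 50 min) was 20 min for 5 genes, 30 min for 3 and 40 min for 2, leaving out the SVS1 value at the limit. In the second cycle (60 to 120 min) it was 80 min for 2 genes, 90 min for 4, 100 min for 3 and 110 min for 1. The maxima lay 60 min apart for 5 genes, 70 min for 4 and 80 min for KRE6. SVS1 is among the 4 only because its 30 min value was left out. The 60 min array was the lowest of the second cycle for 8 of the 10, all but GAS3 and GAS5.

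TOS6 spanned 5.52 log2 over 0 to 50 min and 1.81 over 60 to 120 min, a ratio of 3.06. The ratio was 1.79 for SVS1, 1.45 for CRH1 and 1.27 for GAS1. That of SVS1 leaves out its value at the limit, which would raise it. Ratios were close to 1 for GAS3, FKS1 and MNN1 (0.97 to 1.07), and below 0.9 for KRE6, GAS5 and EXG1, with 0.48 for EXG1. The median ratio was 1.04 over the 10 genes, 1.37 over the 338 called genes and 1.14 over all genes tested. The lowest first-cycle array was 0 min, the arrested culture, for 6 of the 10 genes (GAS1, GAS3, FKS1, SVS1, MNN1 and TOS6). It was 50 min for 3 and 10 min for GAS5 alone. The 10 min array, the most widely spread of the 13, was the highest of the first cycle for no member. How far the ratios depend on the arrested sample was not tested, nor was the part of the 10 min array in the medians over the larger sets.

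**Figure D3:**
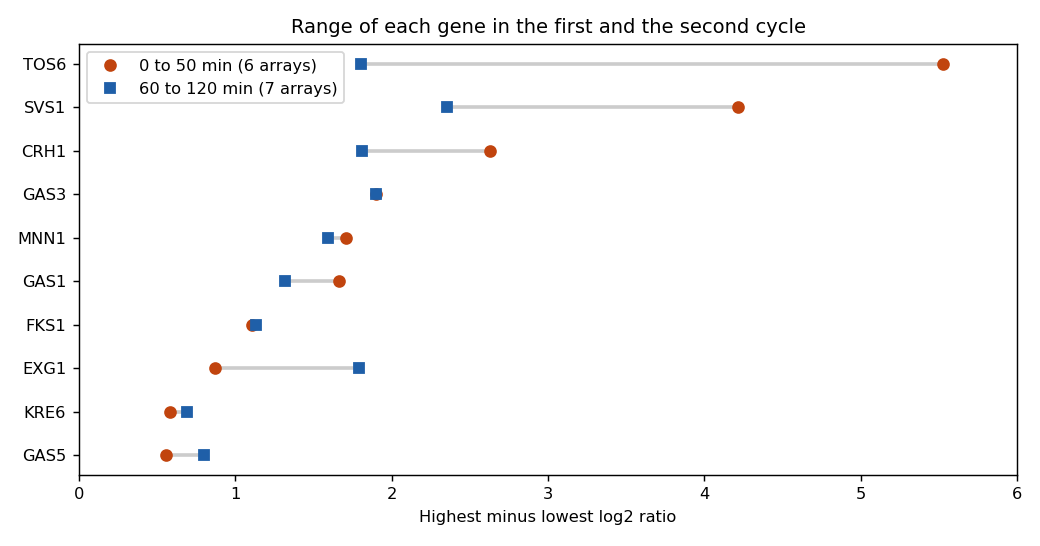
Highest minus lowest log2 ratio (horizontal axis) of each gene over 0 to 50 min (red circles, 6 arrays) and over 60 to 120 min (blue squares, 7 arrays), without the SVS1 value at the limit. TOS6, SVS1 and CRH1 have a wider first cycle, GAS3 and FKS1 equal ones, and EXG1 a wider second.

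The arrested cells at 0 min were asked about separately, by adding a term for that single array to the wave. This measures the distance of the 0 min value from the curve and assumes that the array varies like the others. TOS6 lay 9.89-fold below its curve (-3.31 ± 0.43 log2, limma, adjusted p = 0.00135) and SVS1 4.13-fold below (-2.05 ± 0.40 log2, adjusted p = 0.0148). At an adjusted p under 0.05 these 2 of the 10 were lower and limma called none higher. At that threshold 2.08% of 6153 genes tested were lower and 3.15% higher. At an unadjusted p under 0.05, 4 of the 10 were lower and 0 higher, a count that cannot be set against those adjusted shares.

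The other 8 did not pass. Their deviations were -0.78 ± 0.35 log2 for GAS3, -0.59 ± 0.31 for MNN1, -0.55 ± 0.23 for GAS1, -0.33 ± 0.20 for GAS5, -0.31 ± 0.34 for CRH1, -0.29 ± 0.21 for FKS1, -0.04 ± 0.21 for KRE6 and 0.95 ± 0.48 for EXG1, with adjusted p from 0.217 to 0.952 (limma). The median over the 10 was -0.44 log2, against -0.003 over all genes tested. TOS6 stayed past the threshold under every alternative run (adjusted p from 0.000161 to 0.0212), but its deviation shrank to -2.25 log2 with quantile-normalized arrays and -2.50 log2 without the array set. The SVS1 call was lost with quantile-normalized arrays (-1.06 log2, adjusted p = 0.246), with a linear time term instead of the array set (0.0532) and with its 30 min value kept (-3.40 log2, 0.317), over a range of 0.00417 to 0.317.

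The raw values, without a curve, went the same way for both genes but by less than the fitted deviations. Here no term takes up the array set, and the 0 min array is of another set than the 60 and 120 min arrays. At 0, 60 and 120 min, the same point of a 60 min cycle, TOS6 stood at -3.13, -0.87 and -0.61 log2 and SVS1 at -2.73, -1.36 and -0.89. The 0 min value was below both others for 6 of the 10 genes, GAS1, GAS3, GAS5, SVS1, MNN1 and TOS6, where 36.1% of 6111 genes with all 3 values showed this. FKS1, at -0.25, was above its later values of -0.59 and -0.29, and CRH1, at -0.39, above -0.76 and -0.57.

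Several members have a relative with a similar activity. GSC2, the alternative catalytic subunit of glucan synthase, was high from the start, with log2 ratios of 0.61, 0.79, 0.63 and 0.51 from 0 to 30 min against -0.25, 0.20, 0.54 and 0.85 for FKS1. From 80 to 110 min the ratios of both genes ran close together, 0.23, 0.36, 0.42 and 0.15 for GSC2 and 0.16, 0.50, 0.55 and 0.12 for FKS1. The fitted size of GSC2 was 0.33 ± 0.14 log2 (limma, adjusted p = 0.328), and it passed within the 9 arrays from 40 to 120 min alone (0.0493). The coding sequences of FKS1 and GSC2 are known to be much alike, and whether their spots share signal was not tested.

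SKN1, the relative of KRE6, moved the other way in the first cycle, at -0.78 and -0.71 log2 at 20 and 30 min when KRE6 was at its highest. In the second cycle KRE6 was highest at 90 and 100 min (0.35 and 0.45), where SKN1 stood at 0.22 and 0.21. Over all 13 arrays r was -0.63, and SKN1 did not pass (0.67 ± 0.18 log2, limma, adjusted p = 0.091). UTR2, a transglycosylase of the CRH1 family, was periodic with an earlier peak at 10.7 ± 1.6 min (0.85 ± 0.16 log2, limma, adjusted p = 0.0214). In the first cycle UTR2 was highest at 10 min (-0.01 log2) and down to -1.19 at 30 min, where CRH1 still stood at 0.82. In the second cycle both were highest at 80 min, UTR2 at -0.38 and CRH1 at 1.06 log2. UTR2 lost its call in 2 of 13 fits without 1 array, those without 70 or 80 min. Unlike EXG1, the second exo-glucanase EXG2 passed, peaking at 34.4 ± 1.7 min with 0.74 ± 0.11 log2 (limma, adjusted p = 0.00931). The difference between EXG1 and EXG2 itself was not tested.

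GAS2 and GAS4 are known for the spore wall. GAS4 did not pass (0.19 ± 0.18 log2, limma, adjusted p = 0.762), while GAS2 did, with 0.59 ± 0.09 log2 and a peak at 35.0 ± 1.6 min (adjusted p = 0.00636, but 0.14 without the array set term). GAS2 carries the next number after FKS1, YLR343W after YLR342W, on the same strand, and the profiles gave r = 0.83, a pair singled out after its values were seen. Whether the GAS2 spot picks up FKS1 signal was not tested. MNT3, of the MNN1 family of mannosyltransferases, did not pass (0.14 ± 0.13 log2, limma, adjusted p = 0.729). GAS2 is not the nearest annotated gene to FKS1, since YLR342W-A, which was not tested, lies between them. Among the genes immediately next to the 10 members on the chromosomes, GAS2 therefore not included, 17 were tested and limma called none. Over all genes 5.47% were called, so 0 of 17 does not set these neighbours apart. At an unadjusted p under 0.05 it was 0 of the 17, against 1309 of all 6183 genes tested.

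**Figure D4:**
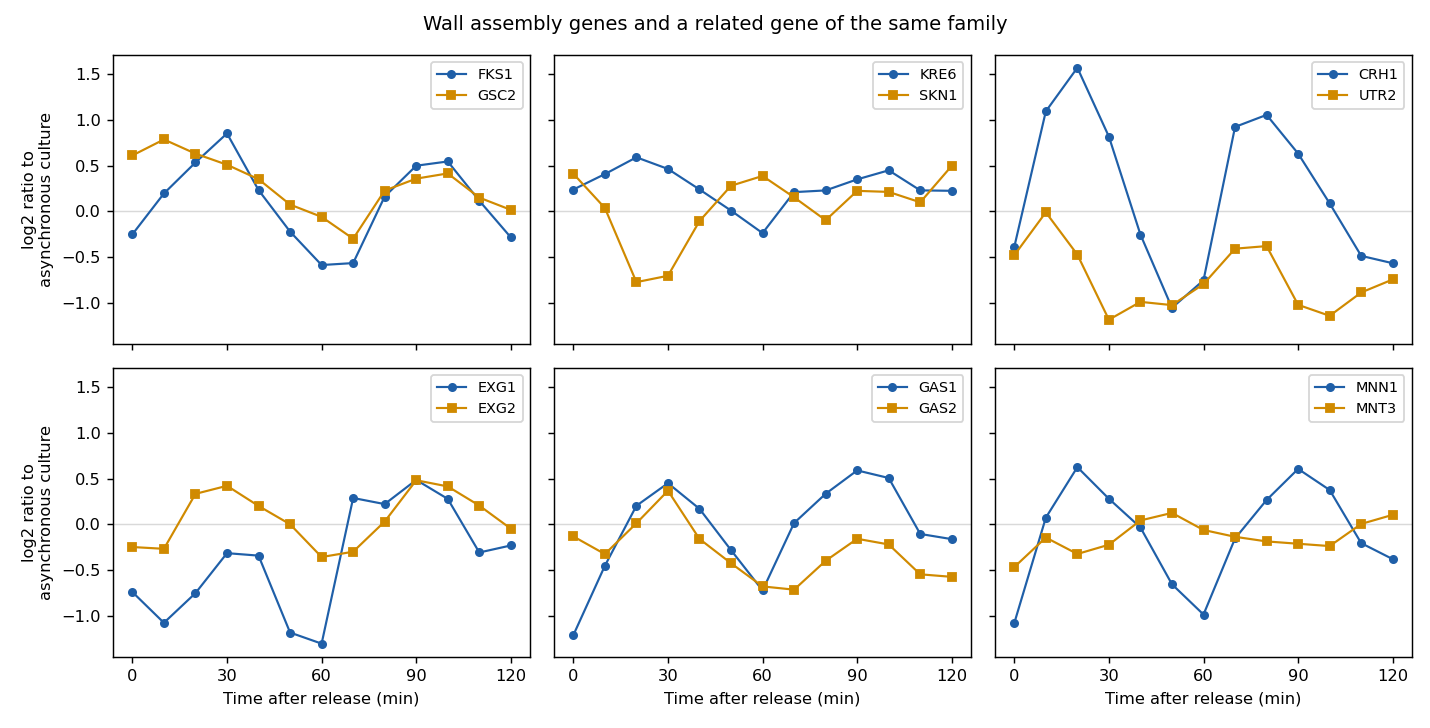
Log2 ratio to the asynchronous culture (vertical axis) against time after release in min (horizontal axis) for 6 members (blue circles) and a related gene of the same family (orange squares), with 1 array per point. GSC2 starts above FKS1 and joins it by 80 min, and SKN1 dips where KRE6 is highest in the first cycle but not in the second. UTR2 turns before CRH1 in the first cycle, both are highest at 80 min in the second, and MNT3 stays nearly flat.

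The members were set beside 85 other tested genes from 7 lists of wall synthesis. Of these 23 were periodic (27.1%, against 5.47% over all genes), with peaks from 4.8 to 51.2 min, and their median size was 0.39 log2. The lists were made with earlier results known, so the count is a description. The number called fell to 11 without the 70 min array, 12 without 80 min and 15 without 30, 40 or 50 min, and reached 25 without 0 min.

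The glucan synthesis genes around FKS1 and KRE6 were called about as often as all genes (5.47%). Of 13 other genes for the synthase and Rho1 signalling only RHO1 was called, with 0.52 ± 0.11 log2 at 42.3 ± 1.8 min (limma, adjusted p = 0.0391), and it lost the call in 8 of 13 fits without 1 array. Of 10 other beta-1,6-glucan genes only CWH41, a glucosidase of the endoplasmic reticulum, was called (0.998 ± 0.18 log2 at 26.1 ± 1.9 min, adjusted p = 0.0208). Of 4 other glucanases EXG2 alone was called. Glucan remodelling gave 4 of 8: GAS2, UTR2, SCW10 (1.21 ± 0.22 log2 at 28.2 min) and SCW4 (0.92 ± 0.20 log2 at 51.2 min), the last 2 being related wall glucanase-like proteins. SCW4 lost its call in 10 of 13 fits without 1 array and SCW10 in 2.

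Of 13 chitin genes 4 were called, between 9.7 and 21.8 min. CHS1, a chitin synthase of septum repair, spanned 1.83 ± 0.40 log2 at 10.8 ± 1.9 min, BNI4, which anchors chitin synthesis at the bud neck, 1.36 ± 0.29 log2 at 17.2 ± 1.7 min, and QRI1, which makes the sugar nucleotide for chitin, 1.04 ± 0.17 log2 at 21.8 ± 1.5 min (limma, adjusted p = 0.0387, 0.0376 and 0.0115). CHS1 and BNI4 lost the call in 7 and 9 of 13 fits without 1 array.

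Of 24 mannosylation genes other than MNN1, 7 were called, between 16.9 and 32.8 min. PMI40 and PSA1, enzymes of the mannose donor pathway, spanned 1.33 ± 0.23 and 1.21 ± 0.26 log2 at 31.1 and 32.8 min (limma, adjusted p = 0.0152 and 0.0384). OCH1, which starts the outer mannan chain, spanned 1.06 ± 0.22 log2 at 16.9 min (limma, adjusted p = 0.0325). Leaving out 1 array in turn ended the call of OCH1 in 8 of 13 fits, of PSA1 in 7 and of PMI40 in 1. Of 13 other wall proteins 5 were called, led by YPS3 (1.57 ± 0.25 log2 at 15.8 min), SRL1 (1.51 ± 0.29 at 31.1 min) and PST1 (1.499 ± 0.16 at 11.3 min). PST1 kept its call in all 13 such fits but not without the array set term (adjusted p = 0.168), YPS3 lost it in 1 and SRL1 in 2.

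**Figure D5:**
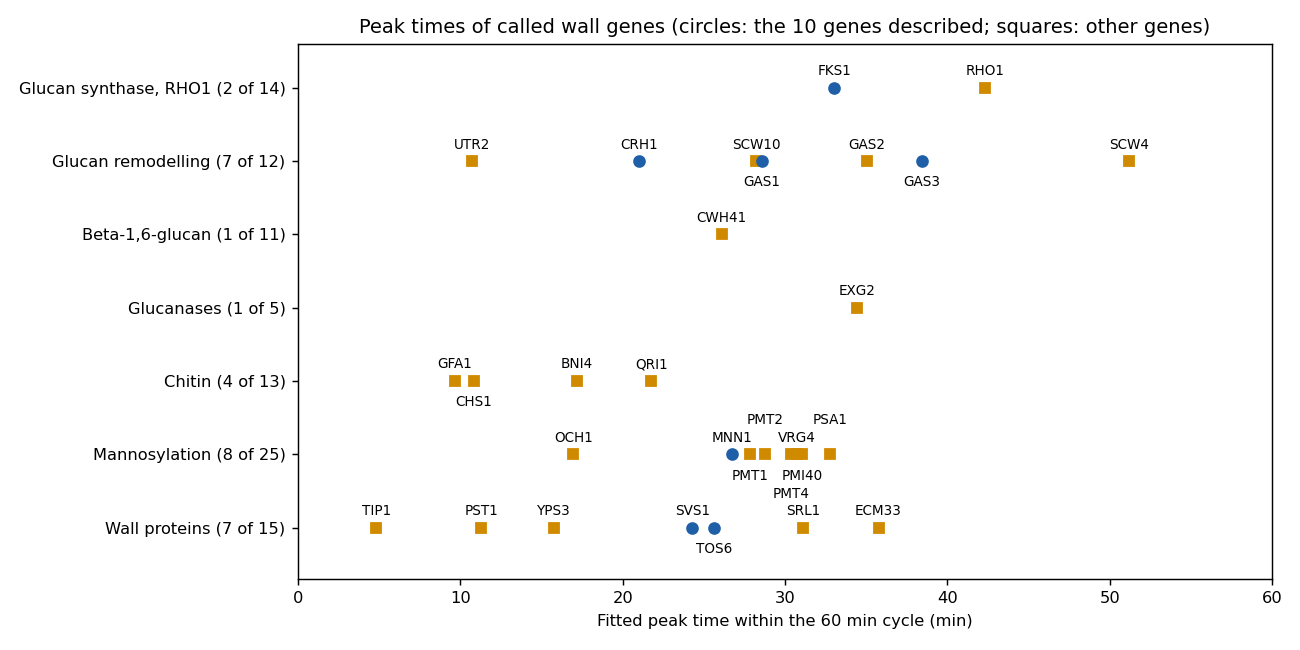
Fitted peak time in min within the 60 min cycle (horizontal axis) of every called gene of the 7 wall lists (rows, with the number called of the number tested, members included). Circles are the members and squares other genes. The called chitin genes lie between 9.7 and 21.8 min, and the called mannosylation genes other than OCH1 between 26.8 and 32.8 min.

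At 0 min 4 of these 85 genes lay above their curve and 1 below, counts near the 3.15% and 2.08% over all genes. SCW11, a glucanase-like protein of cell separation, was higher by 5.22 ± 0.63 log2 (limma, adjusted p = 0.000718), MNT2, a mannosyltransferase of the MNN1 family, by 1.58 ± 0.14 log2, and the chitin synthases CHS1 and CHS3 by 1.70 ± 0.38 and 1.17 ± 0.21 log2 (adjusted p = 4.8e-05, 0.0243 and 0.0085). SRL1, a mannoprotein, lay below its curve, at -1.45 ± 0.31 log2 (adjusted p = 0.0201), like TOS6 and SVS1, and missed the threshold without the 80 min array (0.0509). The measured MNT2 ratio was 1.36 log2 at 0 min and between -0.34 and 0.24 at all later times. That of SCW11 was 0.71 log2 at 0 min and between -3.09 and -2.87 from 10 to 30 min. It was -1.99 and -1.68 log2 at 60 and 120 min, and 0.33 and 0.26 at 70 and 80 min. The measured 0 min value of SCW11 thus exceeded these later values by less than the fitted deviation, and its second-cycle maximum by little. Without the array set the deviation was 2.62 log2 for SCW11 and 0.94 log2 for CHS1 and neither passed (adjusted p = 0.354 and 0.371), nor did CHS1 with quantile-normalized arrays (0.0877), at a 65 min period (0.165) or without the 90 min array (0.0528).

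Genes with the most similar time course were found by Pearson's r over the shared arrays. For the mean centred profile of the 10 genes the closest 5 were STE24, a protease that matures a-factor, LPX1, a peroxisomal lipase, EMP24, a cargo receptor of early secretory vesicles, and PMT1 and PMT4, which start O-mannosylation of wall proteins (r = 0.93 to 0.95, 13 arrays). They peaked between 26.9 and 30.4 min. By member, CRH1 was closest to RFA1, a replication protein A subunit (r = 0.98), TOS6 to RFA3 of the same complex (r = 0.98), GAS3 to the wall-associated SIM1 (r = 0.96), SVS1 to the bud-site protein AXL2 (r = 0.95), GAS1 to the histone gene HHT2 (r = 0.95) and FKS1 to the septin-associated BNI5 (r = 0.94). The others were FAP7 for GAS5, WBP1 for KRE6, PPS1 for MNN1 and, least alike, HSH49 for EXG1 (r = 0.88). RFA3, FAP7, WBP1 and HSH49 were not called periodic (limma, adjusted p = 0.0529, 0.0946, 0.280 and 0.544). STE24 and PPS1 lost the call in 9 and 11 of 13 fits without 1 array. Each gene was picked for the highest r among all other genes tested, so these values are descriptions and not tests.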

How the data were processed

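The authors deposited 1 log10 ratio for each feature on each array. Its base was read from the values, which end exactly at 2 and -2 (100-fold); the sources used here do not give the scanner, background correction or normalization. Of 80493 values of 6205 open reading frames, 272 within 0.01 of the limits were treated as missing (205 of them at 0 to 30 min). Values were turned into log2, and genes with values on at least 11 of 13 arrays were fitted with limma 3.58.1 in R 4.3.3, in a model across all genes. Symbols came from RefSeq's genes of assembly R64 (5703 matched, 502 did not); 12 control rows stayed out. The files name no build, so no coordinates are printed. Depth does not apply to ratios, and the number of arrays limits the precision. Python 3.11.15 and matplotlib 3.10.9 made tables and plots. The fits were tested on simulated data. The members, lists and tests were chosen with earlier results of these data known. Named genes are the members, 7 relatives, 4 timing references, up to 3 called genes of each wall list by size (2 for 0 min), and the genes closest by r. Alternatives were quantile normalization, the array set term, values at the limit, missing values, the period, a second harmonic, the 40 to 120 min arrays alone and each array left out.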

Additional observations from a re-analysis of the deposited data

How the results depend on the processing

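The count of 7 periodic members became 0 at a 55 min period and 3 with a second harmonic (CRH1, FKS1 and GAS1). It was 5 to 8 under every other alternative run and 6 to 8 without 1 array, with 8 at a 65 min period. The count of 23 other wall genes became 1 and 5 under the same 2 changes and ran from 11 to 25 without 1 array. The count of 2 members departing at 0 min became 1 with quantile-normalized arrays, a linear time term instead of the array set, values at the limit kept, or all 13 arrays required, where SVS1 could not be tested. Over all genes the 338 calls became 546 with quantile normalization, 6 at 55 min, 73 with a second harmonic and 143 to 381 without 1 array (lowest without 70 min), and the 322 departures at 0 min became 91 with quantile normalization, 210 with a linear time term, 556 at 65 min and 214 to 367 without 1 array. Of 219 member sizes recomputed, 192 kept their side of the threshold, 21 lost the call and 6 gained it. The cause of these changes was not tested. No paired analysis was possible because each time point has 1 array and the labels give no replicate numbers. SWI4, of SBF, did not pass (1.33 ± 0.32 log2, limma, adjusted p = 0.0606; 0.00112 with quantile normalization).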
